A study of Mus musculus with 10 samples.

Results

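Myc and Ccnd1 are genes of cell proliferation, and their surroundings were examined for open chromatin in 3T3-L1, a line of mouse fibroblasts that can be turned into adipocytes. The cells had been under adipogenic induction for 4 h. The members are the DNase I hypersensitive (DHS) sites that overlap either of 2 windows of the mm9 genome by at least 1 bp, and the footprints inside those windows. The Myc window runs over 3 Mb of chromosome 15, from 60800000 to 63800000, and takes in the gene-poor DNA on both sides of the gene. The Ccnd1 window runs over 211 kb of chromosome 7, from 152015000 to 152226000. Of the 129028 DHS sites in the series, 231 belonged to the windows, 221 to Myc and 10 to Ccnd1. Of the 329076 footprints, 646 did, 592 in the Myc window and 54 in the Ccnd1 window. Both windows are defined by position and use no measured value of a site, although they were proposed with earlier results of these data known.

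Myc encodes a basic helix-loop-helix leucine zipper transcription factor that pairs with Max and drives genes of growth and cell division. It is an immediate-early gene, induced within hours when resting fibroblasts receive serum or growth factors. Ccnd1 encodes cyclin D1, the regulatory subunit of Cdk4 and Cdk6, which carries cells through G1 by phosphorylating the retinoblastoma protein. Confluent 3T3-L1 cells re-enter the cell cycle after adipogenic induction, a step known as mitotic clonal expansion. Enhancers of Myc are known to lie far from the gene in the surrounding gene desert, and the long noncoding gene Pvt1 is its neighbour on the downstream side.

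The 2 DNase samples were separate sequencing runs, 1 of them paired-end, of 1 library made from 3T3-L1 nuclei harvested at 4 h. The cells carried no transgene or knockdown named in the labels. They had been given 1 µM dexamethasone (a glucocorticoid), 0.5 mM 3-isobutyl-1-methylxanthine (which raises cyclic AMP), 1 µg/mL insulin and 10% fetal calf serum. The authors merged these reads with an older run of that library and called sites and footprints once, so there were no replicates, no earlier time point and no test. Intervals given below cover counting error only and treat sites or footprints as independent. A DHS site is a stretch that DNase I cuts often, and a footprint is a short stretch inside it that is cut less, as under a bound protein. The lists hold no read counts, so depth is unknown, and more protein cannot be told apart from more cuts. They hold no gene expression either, and the cell type could not be checked against marker genes.

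The Myc gene was placed near 61817000 to 61822000, and Ccnd1 in the 11 kb left when 100 kb is taken from either end of its window, from 152115000 to 152126000. These ends are rounded to 1 kb, so distances to a gene are good to about that. Myc is transcribed toward higher coordinates and Ccnd1 toward lower ones, and "upstream" and "downstream" below follow each gene's own direction. Exons, introns and untranslated regions of mm9 were not used here. In the RefSeq gene order of a newer build, GRCm38, the protein-coding neighbours of Myc are A1bg and Lratd2 on the upstream side and Gsdmc, Gsdmc2 and Gsdmc3 on the downstream side. Those of Ccnd1 are LTO1, Fgf15 and Fgf4 downstream and Tpcn2 upstream. Which site of mm9 falls on which of these neighbours was not determined.

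The Myc window was rich in sites. Its 221 sites amounted to 73.7 per Mb. When the genome was divided into consecutive bins of the same 3 Mb, the 846 bins that held a site had a median of 149 sites, with an interquartile range of 125 to 174. Only 36 of those bins had more sites than the Myc window. However, 52 of the 221 sites belonged to 1 group near the far downstream end, described further on. The other 169 would fall inside the interquartile range of the bins. The 592 footprints of the Myc window stood above 77.4% of the bins, whose median was 315.5. The Ccnd1 window held 10 sites, and 10 was also the median of the 11985 bins of 211 kb. Its 54 footprints stood above 82.3% of these bins, which had a median of 12 footprints. The Ccnd1 window thus had an ordinary number of sites and a more than ordinary number of footprints.

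Sites of the Myc window carried a footprint more often than sites in general. A footprint was found in 130 of 221 Myc sites, or 58.8% (95% Wilson interval 52.2 to 65.1%), and in 7 of 10 Ccnd1 sites, or 70.0% (39.7 to 89.2%). Over all 129028 sites it was 45.4%, below the Myc interval and inside the wide Ccnd1 interval. The members were also wider. The median width was 600 bp in the Myc window and 860 bp in the Ccnd1 window, against 532 bp outside the windows, and wide sites hold more footprints over the whole list. The number of footprints was therefore set beside the number predicted from width, the mean over all sites of the same width class. On that scale the Myc window held 592 footprints where 711 were predicted, a ratio of 0.833 (95% Poisson interval 0.767 to 0.903). The Ccnd1 window held 54 where 60.0 were predicted, a ratio of 0.900 (0.676 to 1.17). The Myc ratio was an average of unlike stretches, since without the sites 1700 kb or more downstream, described further on, it was 1.12.

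**Figure D1:**
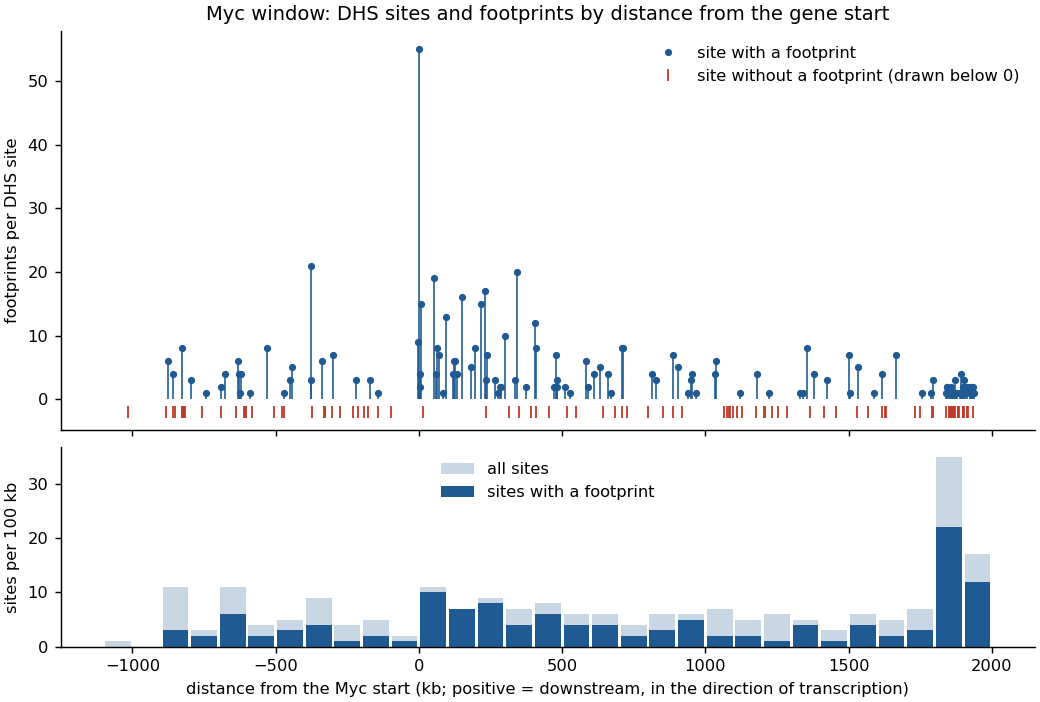
DHS sites of the Myc window by distance of their centre from the gene start (x axis, kb, positive in the direction of transcription). The upper panel gives the footprints of each site, with red ticks for the 91 sites that had none, and the lower panel the number of sites in each 100 kb, with the footprinted ones in dark blue. The site over the gene start stands out with 55 footprints, most tall sites follow it within 500 kb, and the crowd of sites at the right-hand end has low counts.

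The gene itself lay in a nearly unbroken run of open chromatin. Of the 5 sites within 5 kb of Myc, 4 followed each other with gaps of 33, 71 and 51 bp, so that 6868 of the 7023 bp from 61814627 to 61821649 were inside a site. Sites less than 100 bp from the next one are uncommon, 2.28% of neighbouring pairs in the whole list, and 12 of the 220 pairs of the Myc window were so close. The run held 70 footprints. Before it, toward the upstream side, came 93.3 kb without any site, the second longest stretch between neighbouring sites of the window.

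The broadest site of the run covered the start of Myc. It measured 4716 bp, from 61815515 to 61820230, and held 55 footprints, the most of any member. By width it ranked 50th and by number of footprints 52nd of all 129028 sites. Its 55 footprints compare with 20.1 predicted from 50 width classes and 39.5 from 500, both means over mostly narrower sites. Per kb it held 11.7 footprints, against 8.38 over the widest of the 50 classes. They took up 22.6% of its sequence and had a median score of -4.55, where the score is the authors' own value per footprint, negative throughout and read here as stronger when more negative. The median of all finite scores in the series was -4.38. Relative to the gene start, 38 of the 55 footprints lay on the gene side and 17 upstream, and 18 had their centre within 500 bp of the start.

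Footprints within the broad Myc site were not spread evenly. Cut into steps of 500 bp from its upstream end, the site had 2, 6, 10 and 7 footprints in the first 2000 bp, the stretch that takes in the rounded gene start. The next 1000 bp held 5 and 3. The densest step, from base 3001 to base 3500 of the site, held 15 footprints that covered 257 bp, and it also held the strongest score of the site, -8.02, for a footprint from 61818811 to 61818829. That footprint lies 1.82 kb downstream of the rounded start, inside the gene. After it the number fell away, with 6 in the next step, 1 in the one after and 0 in the last 216 bases.

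The other sites at Myc were smaller. The site just upstream, 855 bp from 61814627 to 61815481, held 9 footprints, among them the strongest near the gene, with scores of -9.52, -9.06 and -8.56 at about 2 kb from the start. Scores as strong as -9.52 were rare, since 96.4% of all finite scores in the series were weaker. Inside the gene, a site of 499 bp from 61820302 held 2 footprints and one of 798 bp from 61820852 held 4, none stronger than -4.14. Past the gene's end, a site of 2100 bp from 61822391 to 61824490 held 15 footprints, with a strongest score of -8.47. By width it ranked 1401st in the series but by footprints 3762nd, so it was footprinted more thinly for its width than the site over the start. The next site on, 317 bp wide at 13.4 kb, had no footprint.

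**Figure D2:**
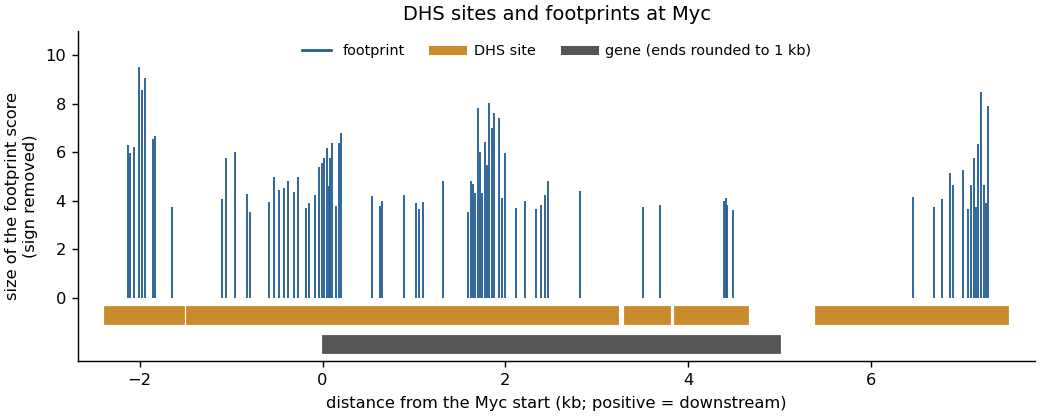
The 5 DHS sites within 5 kb of Myc (orange bars) and their 85 footprints (blue lines, whose height is the size of the score with its sign removed, so taller is stronger), by distance from the gene start in kb. The grey bar is the gene, with ends rounded to 1 kb. Footprints gather about 2 kb upstream, around the start, about 2 kb inside the gene, and at 7 kb beyond the start.

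Downstream of Myc the footprinted sites continued well beyond the gene. The first 500 kb from the gene start held 42 sites, 19.0% of the window's sites, with 296 footprints, 50% of its footprints. A footprint was present in 35 of the 42, or 83.3% (95% Wilson interval 69.4 to 91.7%), against 45.4% of all sites in the series. This share is not matched for width, and the median width was 708.5 bp here against 532 bp over all sites. The 296 footprints stood against 199 predicted from width, a ratio of 1.49 (95% Poisson interval 1.32 to 1.67). The stretch was chosen after its values had been seen, and footprints are clumped by site. The interval is therefore too narrow and is no test of an excess. The sites at the gene were not the sole source of this. Among the 38 sites more than 5 kb from the gene, 31 had a footprint and together they held 220 footprints, 1.43 times the predicted number. The noncoding gene Pvt1 is known to lie on this side, but its extent on mm9 was not used here.

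Counted by the centre of each site, the 100 kb just upstream of Myc had 2 sites and 9 footprints, all of them in the site beside the gene. The 100 kb downstream of the start, which contains the gene, had 11 sites and 128 footprints by the same count. The 128 include the 17 footprints of the broad site that lie upstream of the start. Over the whole window, the upstream flank of 1017 kb held 55 sites and 114 footprints. Of the 55 sites, 24 (43.6%) had a footprint, near the 45.4% of all sites in the series. The downstream flank of 1978 kb held 163 sites, 103 of them (63.2%) with a footprint, and 417 footprints. Per 100 kb this was 5.41 sites upstream and 8.24 downstream. The 163 downstream sites include a group of 52, with 50 footprints, 1838 to 1937 kb from the gene, described further on. The higher density of sites downstream rests largely on that group.

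Footprint-rich sites lay mostly on the downstream side. There were 11 Myc sites with 10 or more footprints, 4.98% of the window's sites, against 7.88% of all sites in the series, so the window had no excess of them. Of these 11, 10 lay between the gene start and 404 kb downstream, and 1 lay upstream. Beyond 500 kb downstream the most footprinted site had 8. After the site over the start, the sites with the most footprints were these. The site 376 kb upstream, 1213 bp from 61439436 to 61440648, had 21. The site 343 kb downstream, 1605 bp from 62159587 to 62161191, had 20. The one 52.2 kb downstream, 2218 bp from 61869217 to 61871434, had 19. The one 231 kb downstream, 1109 bp from 62047893 to 62049001, had 17. Each of these 4 had more footprints than 97.5% to 98.7% of all sites in the series.

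The site 376 kb upstream of Myc was the most densely footprinted of these and also had the window's strongest finite score. It carried 17.3 footprints per kb, against 3.77 over all Myc sites and 4.08 over the sites outside the windows. Those averages are over mostly narrower sites. For its own width 9.04 footprints were predicted, where 21 were found. Its 21 footprints were packed into 619 bp, of which they covered 377 bp. A 30 bp footprint from 61440113 to 61440142 had a score of -14.4, which made it stronger than 99.3% of finite scores in the series, although 30 bp is the widest footprint the list allows and the protected stretch may be longer. It was flanked by footprints at -8.01 and -8.80. The site stood in a group of only 3 sites, 373 to 378 kb from the gene.

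The second and the third strongest finite scores of the Myc window fell together in the site 343 kb downstream, at -11.7 (62160253 to 62160281) and -10.6 (62160415 to 62160436). Its 20 footprints spanned 1029 bp and had a median score of -5.23. The site 151 kb downstream, 1315 bp from 61968359 to 61969673, had 16 footprints, a strongest score of -10.4 and a median score of -5.73. The strongest score of the broad site at the gene, -8.02, was weaker than the strongest of each of these 3 distal sites.

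Downstream of Myc the ratio of found to predicted footprints was lower in the bands beyond 500 kb. It was 1.48 from 0 to 100 kb downstream and 1.49 from 100 to 500 kb. It was 1.04 from 500 to 1000 kb, 0.803 from 1000 to 1700 kb and 0.236 beyond. Upstream it was 1.63 in the nearest 100 kb, which rests on 2 sites, 1.13 from 100 to 500 kb and 0.592 farther out. Of the 53 footprints from 100 to 500 kb upstream, 21 lay in the site 376 kb from the gene, where 9.04 were predicted. In steps of 100 kb from near to far, the ratio in that band was 0.495, 0.538, 1.41 and 1.27. The upstream ratios therefore showed no steady fall. The bands were drawn after the values had been seen and carry no test. In the nearest downstream band the broad site weighs on the result, because the widest class lumps 2580 sites of 1794 bp or more. With 500 width classes in place of 50, the ratio was 1.29 there and 1.499 from 100 to 500 kb.

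**Figure D3:**
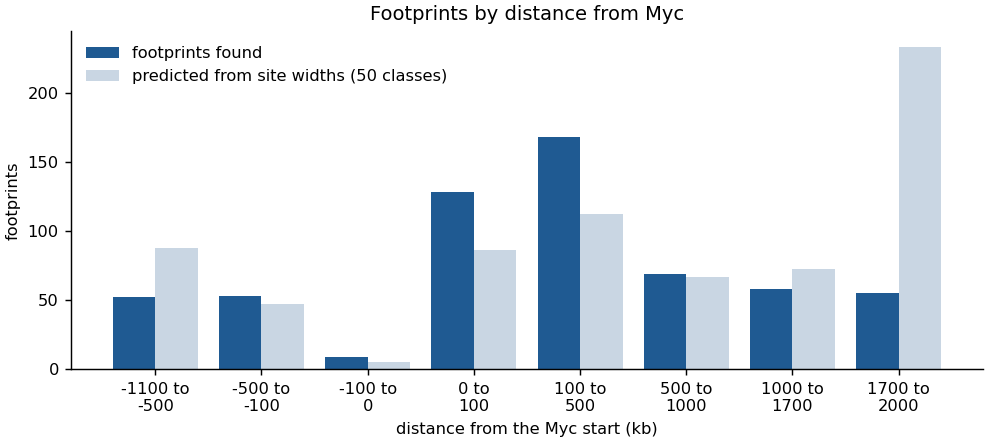
Footprints found (dark bars) and predicted from the widths of the same sites (light bars) in bands of distance from the Myc start (x axis, kb, negative upstream). Found exceeds predicted from -500 to 1000 kb, most plainly in the 2 bands downstream of the start. In the band from -500 to -100 kb, 21 of the 53 footprints found belong to 1 site. Found falls far short in the last band, with 55 against 233.

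The far downstream end of the Myc window had a different make-up. A group of 52 sites, joined because each lay within a set distance of the next (given with the processing), filled 98.4 kb from 63655457 to 63753847, 1838 to 1937 kb from the gene. It held 23.5% of the window's sites in 3.28% of its length, and 42.5% of that stretch was inside a site. By number of sites it ranked 7th of the 57598 groups in the series. The group ended within the window, 46.2 kb short of its edge.

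Sites of this distal group were wider than the rest but thinly footprinted. Their median width was 649.5 bp, against 591 bp in the rest of the window, and 15 of 52 measured 1000 bp or more, against 22 of 169. They held 50 footprints where 223 were predicted, a ratio of 0.225 (95% Poisson interval 0.167 to 0.296), against 1.11 (1.02 to 1.21) in the rest of the window. Footprinted sites were not scarce, at 34 of 52 or 65.4%, against 56.8% in the rest. The difference was in the number per site, since 22 of those 34 had a single footprint and none had more than 4. Among sites of 1000 bp or more, the 15 in the distal group had a median of 2 footprints and a range of 1 to 4, whereas the 22 in the rest of the window had a median of 9 and a range of 0 to 55. Its widest site, 2898 bp from 63706451 to 63709348, had 4 footprints.

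The footprints of the distal group differed in shape as well. Their median width was 28.5 bp, against 21 bp in the rest of the window, and 20 of 50 (40.0%) had the maximum of 30 bp, against 12.7% in the rest and 11.6% in the whole series. The score is recorded as -Inf for 0.151% of footprints in the series, and 6 Myc footprints had it, 5 of them in the distal group. Crowded groups elsewhere also tended to hold few footprints. Among the 87 groups of 20 or more sites in the series the median ratio was 0.407, and 19 had a lower ratio than this one. The Gsdmc genes, a family of neighbouring copies, are the next protein-coding genes on this side in the RefSeq order. Whether the distal group lies on them was not determined.

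Other groups of joined sites were smaller. The Myc window had 79 groups, 34 of them single sites, and 5 clusters of 5 or more sites. These 5 contained 80 sites, 36.2% of the window, against 30.0% of all sites in the series. The higher share rests on the distal group, which held 52 of the 80. The other clusters held 6 to 8 sites each. The group with the most footprints was the one at the gene, with 6 sites over 16.1 kb, 85 footprints and a rank of 174th by footprints among all groups in the series. The distal group came second with 50, and a group of 4 sites 52.2 to 71.5 kb downstream of the start followed with 38. Clusters of 8 sites each, 604 to 640 kb upstream and 1065 to 1127 kb downstream, held 15 and 1 footprints.

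Some of the open sites had no footprint at all. In the Myc window 91 sites had none, the widest of them 1029 bp from 63231327 to 63232355, where 6.93 were predicted. The longest stretch between neighbouring sites of the window was 133 kb, at its upstream end, 883 to 1017 kb from the gene. The third longest, 73.5 kb, lay 727 to 801 kb downstream.

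Ccnd1 had 10 sites in its window, and each can be described. The site over the start of the gene was 2018 bp wide, from 152124675 to 152126692, and held 12 footprints. It ranked 1621st in the series by width and 6099th by footprints, so it was footprinted more thinly than its width would place it, unlike the site over the start of Myc. Its strongest scores, -5.21 and -5.21, belonged to footprints from 152124971 to 152124997, 1.02 kb inside the gene, and from 152125779 to 152125800, 0.211 kb from the rounded start. Of the 12, 9 lay on the gene side of the rounded start and 3 upstream, and 7 lay within 500 bp of it. The median score was -3.94, weaker than the -4.55 of the Myc site.

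Next to it, 342 bp farther upstream, a site of 1202 bp from 152127035 to 152128236 held 9 footprints, the number predicted for its width being 9.04. Inside the gene, a site of 819 bp from 152123185 held 3 footprints, and one of 474 bp from 152121509 had none. At the 3′ end of the gene a narrow site of 267 bp from 152115248 had none either. These 5 sites, all within 5 kb of the gene, made up the window's only cluster of 5 or more sites. It spanned 13.0 kb and held 24 footprints, where 34.1 were predicted, against 85 where 50.2 were predicted for the 5 sites within 5 kb of Myc. With 500 width classes these ratios were 0.803 at Ccnd1 and 1.28 at Myc. The Myc excess lay mostly in the site over the start, with 55 footprints where 20.1 were predicted. The remaining sites there, in order of position, held 9, 2, 4 and 15, where 5.05, 0.618, 4.37 and 20.1 were predicted. The broad site ranked 50th by width and 52nd by footprints in the series. Its width class held mostly narrower sites, which raises the Myc ratios. Per kb the broad site still held more footprints than its class of 50, 11.7 against 8.38. How far the Myc excess goes beyond width was not tested. Both genes carried a broad site over their start. The one at Myc was the broader and the more densely footprinted, at 11.7 footprints per kb against 5.95 at Ccnd1.

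Upstream of the gene's cluster the sites were few and spaced out. A site of 1148 bp at 23.6 kb, from 152149614 to 152150761, held 5 footprints, with a strongest score of -5.89. A site of 901 bp at 36.9 kb, from 152162894 to 152163794, held 6, all on the side of its centre nearer the gene, with a strongest score of -5.38. These 2 sites lay 12132 bp apart and so were joined into a group, with 11 footprints. A site of 641 bp at 61.6 kb, from 152187620 to 152188260, was the widest of the window without a footprint. A site of 586 bp at 89.4 kb, from 152215416, held 3. The 3 longest stretches between neighbouring sites of the window, 27.2, 23.8 and 21.4 kb, all lay on this side of the gene.

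The most footprinted site of the Ccnd1 window was not at Ccnd1. It was the only site downstream of the gene, 1187 bp from 152100285 to 152101471, 24.5 kb from the start and past the 3′ end, and it held 16 footprints, where 9.04 were predicted. They covered 26.5% of the site, against 12.49% of the site over the Ccnd1 start. The 3 strongest scores of the window, -7.19, -7.18 and -6.95, were all here, in footprints from 152100899 to 152100921, 152100959 to 152100987 and 152101074 to 152101103. All 16 fell within 588 bp. LTO1 is the nearest protein-coding gene on this side in the RefSeq order, and whether the site lies at that gene was not determined. From this site to the window's downstream edge, 85.3 kb held no site, longer than any stretch between sites of the window.

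**Figure D4:**
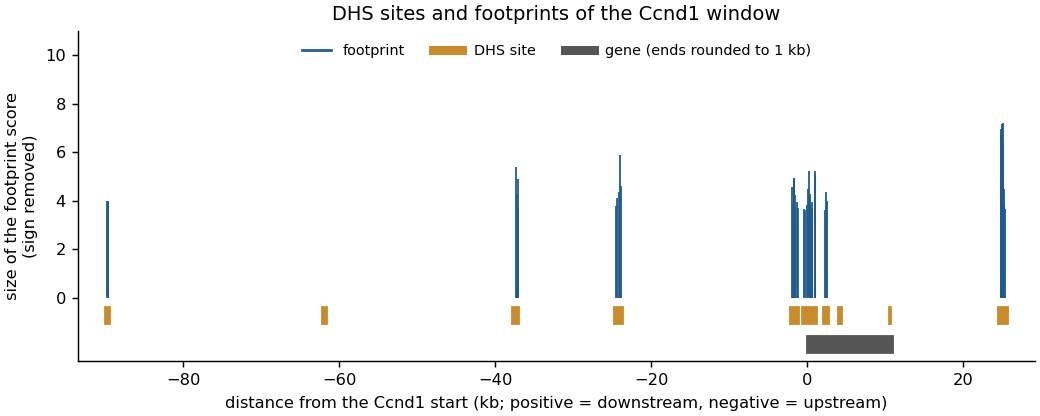
The 10 DHS sites of the Ccnd1 window (orange bars), their 54 footprints (blue lines, height is the size of the score with its sign removed) and the gene (grey bar, ends rounded to 1 kb), by distance from the gene start in kb, with upstream to the left. The 16 footprints at 25 kb downstream include the tallest lines, above those at the gene.

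In median width, median score and spacing the footprints of the windows were close to those of the rest. Widths ran from 8 to 30 bp, with a median of 22 bp in the Myc window, 22.5 bp in the Ccnd1 window and 21 bp outside. The median finite score was -4.39 at Myc, -4.23 at Ccnd1 and -4.38 outside. Footprints at the 30 bp limit were more frequent, 89 of 592 (15.03%) at Myc and 7 of 54 (13.0%) at Ccnd1, against 11.6% outside. Of the 89, 20 belonged to the distal group, and the share in the rest of the Myc window was 12.7%. The distance of a footprint from the centre of its site averaged 0.291 of the way to the edge at Myc, 0.287 at Ccnd1 and 0.292 outside. Between neighbouring footprints of a site the median gap was 22 bp at Myc and 25 bp at Ccnd1, against 20 bp over all sites.

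**Figure D5:**
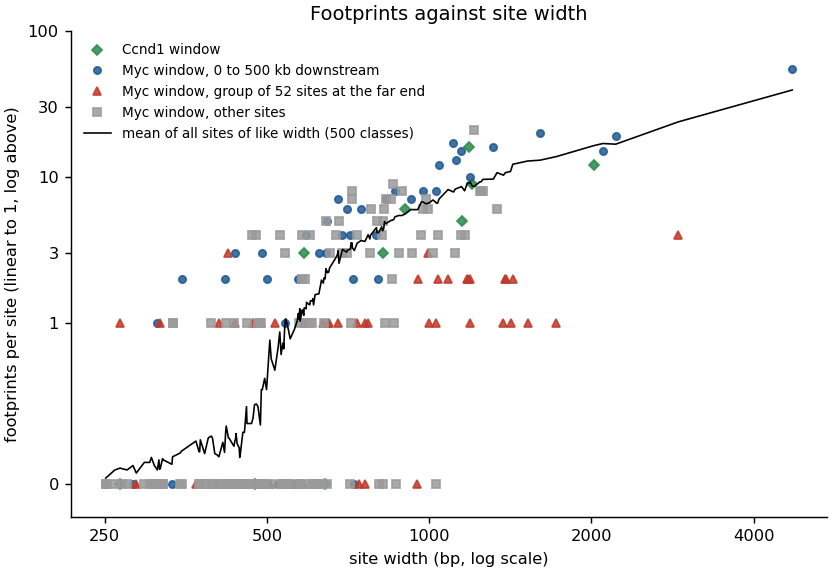
Footprints per site (y axis, linear to 1 and logarithmic above) against site width (x axis, bp, logarithmic) for the 231 sites, with the mean of all sites of like width in 500 classes as a black line. Most blue points (0 to 500 kb downstream of Myc) of 1000 bp or more lie above the line, and the red points of that width (the distal group of 52 sites) lie well below it.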

How the data were processed

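DHS sites and footprints of the DNase samples were taken from the lists the authors deposited; both are pooled calls from 1 library. The build is mm9, and HOMER is named without a role, per the submitters' processing notes. The program that called footprints is not named in the sources used here. Footprints carry a score that the authors deposited under the header p-value; all values are negative and some are -Inf, and no source used here gives its scale or base. It served only to rank footprints. All other deposited values used are positions, printed 1-based on the assumption of BED starts.

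Footprints were assigned to sites at an overlap of 1 bp or more. Predicted numbers are means over 50 width classes of equal size, and sites 12500 bp or less apart were joined. Bins for comparison tiled each chromosome from its first base, leaving out the last, incomplete bin and bins without a site. The steps were tested on simulated sites. Python 3.11.15, numpy 2.4.6, pandas 2.3.3, scipy 1.17.1 and matplotlib 3.10.9 were used.

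Windows, members and the distance bands were chosen with earlier results of these data known. Named by rule were all sites within 5 kb of a gene and, per window, the 5 sites and 3 groups with the most footprints, the 3 strongest finite footprints, the 3 longest stretches between sites and the widest site without a footprint; other regions named were chosen after their values were seen. The planned motif search was not run, because the promoter sequence table at hand matched 0 of the 2 genes and no mm9 sequence was used. The 8 RNA samples were not analysed here.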

Additional observations from a re-analysis of the deposited data

How the results depend on the processing

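No paired analysis was possible because the calls come from 1 library and no test was made. Chosen after seeing the data were the use of 500 width classes and leaving out the sites 1700 kb or more downstream of Myc. Of 65 values under alternatives, 48 stayed within their interval or within 1.5 times the main count, 18 of them exactly equal, and 17 moved. With the stronger 50% of footprints, Myc had 294 and Ccnd1 22, and 35.3% of Myc sites had one. With the wider 50% of sites, Myc had 135 sites, 77.0% of them footprinted, a median width of 778 bp and 1 cluster, and Ccnd1 had 0 clusters. Joining at 5000 bp gave 0 clusters at Ccnd1, and joining at 20000 bp gave 15 at Myc. Taking 100 kb on each side of Myc left 13 sites, 137 footprints, 84.6% of sites footprinted, a ratio to prediction of 1.49, a median width of 798 bp and 1 cluster. Without the sites 1700 kb or more downstream the Myc ratio was 1.12. The whole-window ratio at Myc therefore crosses 1 with the choice of window, as the distal group alone holds 223 of the 711 predicted footprints. The unknown read depth limits every comparison of footprint numbers.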
